A study of Mus musculus with 9 samples.

Results

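The 6 genes described here encode the chains of the cartilage collagens II, IX and XI: Col2a1, Col9a1, Col9a2, Col9a3, Col11a1 and Col11a2. They were taken by symbol from a count table of 52550 genes, and 6 of 6 passed the filter on low counts. The cells came from the forelimbs of mouse embryos at embryonic day 12 and were grown as micromass cultures, high-density drops in which limb mesenchyme forms cartilage nodules. No strain or genotype is given in the sources used here. The DMSO group of 3 libraries received the vehicle only, the FMK group of 3 received Z-VAD-FMK and the OPH group of 3 received Q-VD-OPH. Both compounds are pan-caspase inhibitors and were given at 100 µM for 6 days, in medium renewed every other day. Every group shared a serum-containing medium with ascorbic acid and β-glycerol phosphate, and the inhibitors were added the morning after plating. The labels call the cultures biological replicates, so the p-values set a difference against the spread between cultures, with 3 cultures per group. A culture holds every cell type that the limb bud contributes.

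Collagen II is the main fibrillar collagen of cartilage and is a trimer of 3 identical chains from Col2a1. Collagen XI lies within the same fibrils and limits their thickness; it is built from the chains of Col11a1 and Col11a2 together with a chain that is itself a product of the collagen II gene. Collagen IX, a trimer of the Col9a1, Col9a2 and Col9a3 chains, sits on the fibril surface and links fibrils to each other and to other matrix proteins. In the limb, mesenchymal cells condense and, with the transcription factors Sox9, Sox5 and Sox6, transcribe these collagen genes as they become chondrocytes. The chains are hydroxylated and folded in the endoplasmic reticulum, exported as procollagen, trimmed outside the cell and cross-linked into fibrils.

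The genes are spread over 6 chromosomes, so none neighbours another. By GENCODE M21 (GRCm38), Col2a1 (ENSMUSG00000022483) lies at chr15:97975602-98004695 on the minus strand. Col9a1 (ENSMUSG00000026147) lies at chr1:24177610-24252684, Col9a2 (ENSMUSG00000028626) at chr4:121039385-121055322 and Col9a3 (ENSMUSG00000027570) at chr2:180597790-180622189, all on the plus strand. Col11a1 (ENSMUSG00000027966) lies at chr3:114030540-114220718 and Col11a2 (ENSMUSG00000024330) at chr17:34039437-34066685, both on the plus strand. The 6 are protein-coding genes, and the counts are of their transcripts' 3' ends.

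The 6 transcripts fell together with FMK, as given further on, so the promoters of the members found in the RefSeq table (GRCm38.p6) are shown, each as 250 bases before to 50 bases after the RefSeq start on the plus strand, read 5′ to 3′. The table held 4 of the 6 genes, and Col2a1 and Col9a3 were not matched. For Col9a1, which has a window at each of 2 listed starts, the upstream one is shown. Capitals mark 3 promoter motifs on either strand. TATAAA is the core of the box that positions the start in some promoters. GGGCGG is the GC box bound by Sp1-type factors. CCAAT is the box bound by NF-Y. The windows are chr1:24177360-24177659 for Col9a1, chr4:121039316-121039615 for Col9a2, chr3:114030290-114030589 for Col11a1 and chr17:34038888-34039187 for Col11a2.
Col9a1: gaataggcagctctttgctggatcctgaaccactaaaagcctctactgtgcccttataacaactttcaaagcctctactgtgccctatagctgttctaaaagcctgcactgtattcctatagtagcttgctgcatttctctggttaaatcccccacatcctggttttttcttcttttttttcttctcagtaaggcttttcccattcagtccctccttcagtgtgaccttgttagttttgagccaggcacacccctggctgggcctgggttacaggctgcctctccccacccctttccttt
Col9a2: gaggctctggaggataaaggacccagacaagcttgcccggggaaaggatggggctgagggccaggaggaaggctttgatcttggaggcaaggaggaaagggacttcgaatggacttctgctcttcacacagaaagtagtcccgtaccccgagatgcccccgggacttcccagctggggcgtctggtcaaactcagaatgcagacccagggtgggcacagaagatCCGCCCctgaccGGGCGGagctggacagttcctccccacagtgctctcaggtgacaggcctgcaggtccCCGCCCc
Col11a1: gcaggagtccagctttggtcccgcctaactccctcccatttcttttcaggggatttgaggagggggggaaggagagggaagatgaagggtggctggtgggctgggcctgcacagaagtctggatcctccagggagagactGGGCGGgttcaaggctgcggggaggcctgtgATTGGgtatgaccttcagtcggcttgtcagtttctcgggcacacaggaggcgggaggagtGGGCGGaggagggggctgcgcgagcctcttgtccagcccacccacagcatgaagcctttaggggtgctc
Col11a2: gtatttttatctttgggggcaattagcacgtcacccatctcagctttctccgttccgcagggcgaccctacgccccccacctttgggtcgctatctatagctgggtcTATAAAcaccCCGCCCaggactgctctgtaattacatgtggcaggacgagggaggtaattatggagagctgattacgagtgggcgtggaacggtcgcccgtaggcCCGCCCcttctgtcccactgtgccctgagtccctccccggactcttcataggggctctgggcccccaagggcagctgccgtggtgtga
The Col9a1 window held none of the 3 motifs and had a GC content of 47.3%, against a median of 52.7% over 32851 promoter windows. Its other window, chr1:24194953-24195252, held CCAAT at -18 and was 55.7% GC. The Col9a2 window held GGGCGG 3 times, at -26, -14 and +43 from the start, and was 61.7% GC. In the Col11a1 window GGGCGG stood at -110 and -19 and CCAAT at -79, in a sequence of 62.3% GC. The Col11a2 window held TATAAA at -143 and GGGCGG at -133 and -38, and was 59.0% GC. These positions are from the RefSeq start. For Col9a2, Col11a2 and the other Col9a1 window it differs from the GENCODE gene start given above. The Col11a2 window ends before that gene start. Over all promoter windows TATAAA occurred in 13.6%, GGGCGG in 35.7% and CCAAT in 37.4%, with both strands searched. The letters ACAAAG and ACAATG, cores that SOX proteins can bind, occurred in 18.7% and 12.6% of all windows and in none of the 5 windows of these genes, which says only that these letters are not in these windows.

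The 9 libraries held 5659789 to 6867350 counts. Transcripts of all 12 listed chondrocyte markers, which leave out the collagens, were detected in every group of these cells, whose source name is chondroblasts. They had a summed level of 1276 to 1762 CPM (counts scaled to the library total) with DMSO. The cultures also held macrophage, adipocyte and skeletal muscle transcripts. The libraries numbered 3 stood apart in each group. Their summed level of 10 adipocyte markers was the lowest of the group, for example 500 CPM against 2551 and 2256 CPM with DMSO, and that of 11 skeletal muscle markers was the highest, 832 against 229 and 322 CPM. The counts of collagen genes called against DMSO are also given with all of these libraries left out. For the direct comparison of the inhibitors, the ratios within a library and the other gene lists, such values are not given separately.

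With DMSO, the collagen transcripts were ordered as follows, in CPM, where 3'-end counting gives about 1 read per transcript and needs no division by length. Col2a1 came first at 1336 ± 302 CPM (SD, n = 3) and Col11a1 second at 908 ± 123 CPM. Col9a1 stood at 230 ± 57.1 CPM and Col11a2 at 186 ± 49.7 CPM. Col9a3 at 111 ± 39.3 CPM and Col9a2 at 89.9 ± 19.7 CPM were lowest. The only step in this order without overlap of libraries was that from Col11a1 to Col9a1. Within each DMSO library the order held from Col2a1 down to Col9a3. Only in library 2 was Col9a2 above Col9a3, at 70.3 against 67.4 CPM. With FMK the means were 425 ± 38.7 CPM for Col2a1, 400 ± 68.5 for Col11a1, 82.1 ± 5.53 for Col11a2, 76.8 ± 12.4 for Col9a1, 35.5 ± 4.50 for Col9a3 and 34.9 ± 4.66 for Col9a2. With OPH they were 649 ± 245 CPM for Col2a1, 415 ± 115 for Col11a1, 115 ± 40.1 for Col11a2, 98.4 ± 31.6 for Col9a1, 56.7 ± 18.7 for Col9a2 and 48.1 ± 24.8 for Col9a3. In each group Col2a1 and Col11a1 were therefore far above the other 4 genes. Col11a2 and Col9a1 changed places between DMSO and the inhibitors, though the ranges of their libraries overlapped. Col9a1 was above Col11a2 in every DMSO library and below it in every OPH library. With FMK it was below Col11a2 in libraries 1 and 3 and above it in library 2. The 6 genes together made up 0.291% ± 0.058 of all counts with DMSO, 0.1003% ± 0.0040 with FMK and 0.142% ± 0.048 with OPH (SD, n = 3). The summed share lay at 0.226% to 0.335% in the DMSO libraries, at 0.097% to 0.105% in the FMK libraries and at 0.103% to 0.196% in the OPH libraries, so neither inhibitor group overlapped with DMSO.

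**Figure D1:**
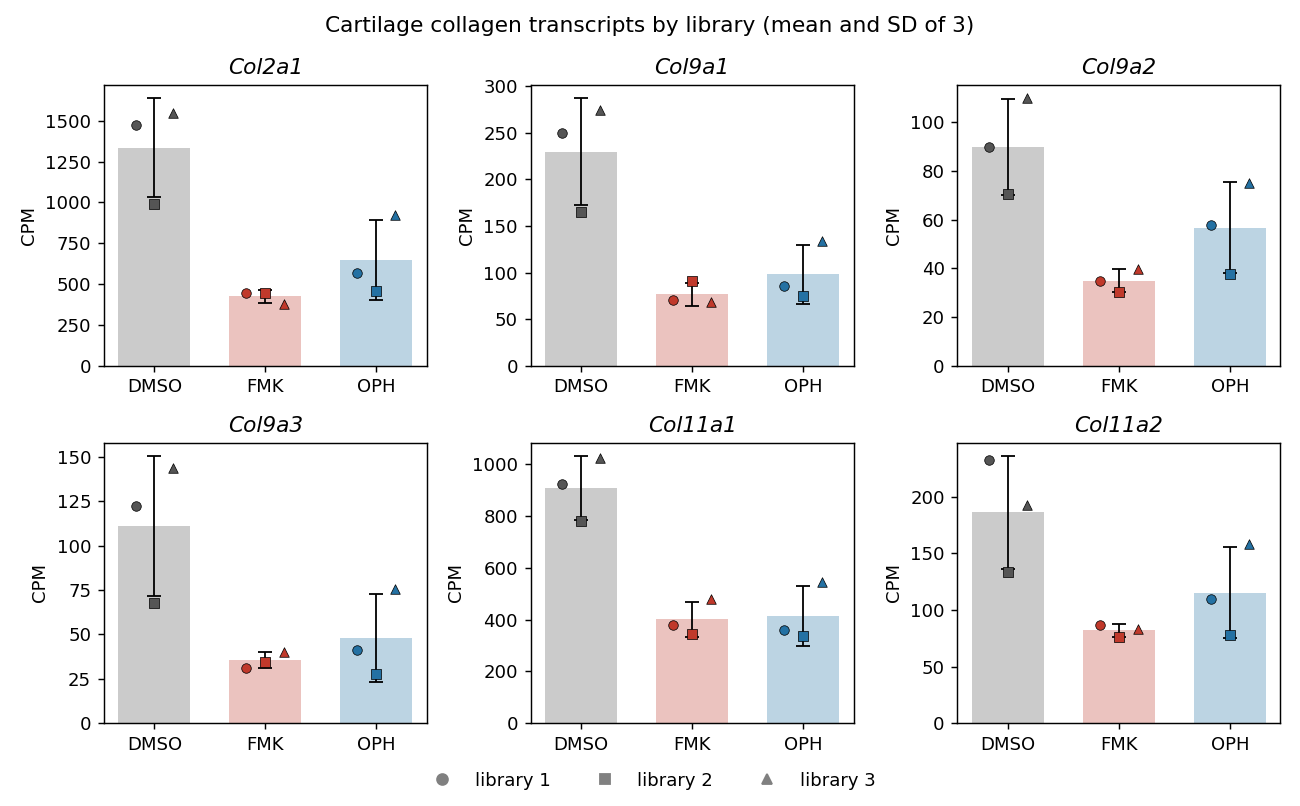
Level of each cartilage collagen transcript in CPM (vertical axis, from 0) with DMSO, FMK and OPH. Symbols are the 3 libraries of a group by number, bars the mean and whiskers the SD; for Col2a1 the FMK libraries lie at 381 to 448 CPM and the DMSO libraries at 991 to 1546 CPM.

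The comparison of FMK with DMSO asks how these transcripts stand after 6 days of caspase inhibition by Z-VAD-FMK. All 3 collagens were lower with FMK: 6 of 6 genes fell, by 2.27-fold to 3.14-fold, where 10.1% of the 13255 genes tested were lower and 20.6% were called in either direction (edgeR quasi-likelihood test, Benjamini-Hochberg adjusted p under 0.05). The median log2 fold change of the 6 was -1.47, against -0.0064 over all genes tested. In 6 of 6 genes the FMK libraries lay below every DMSO library, which held for 18.1% of genes tested.

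Col2a1, the gene of the collagen II chain, stood at 1472, 991 and 1546 CPM in DMSO libraries 1, 2 and 3 and at 448, 448 and 381 CPM in the FMK libraries. The groups did not overlap, and DMSO library 2 was the lowest of its group. The log2 fold change was -1.65 ± 0.30 (SE; edgeR adjusted p = 0.0113), a level 3.14-fold lower.

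Of the collagen XI chains, Col11a1 was at 923, 778 and 1022 CPM with DMSO and at 378, 346 and 477 CPM with FMK. Every FMK library was below every DMSO library, and library 3 was the highest in both groups. Its log2 fold change was -1.18 ± 0.22 (edgeR adjusted p = 0.00952). Col11a2, the partner chain, was at 232, 134 and 192 CPM with DMSO and at 86.7, 76.0 and 83.5 CPM with FMK. Its FMK libraries lay close together, while DMSO library 2 was well below the other two. The log2 fold change was -1.18 ± 0.30 (edgeR adjusted p = 0.0338).

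The chains of collagen IX fell as well. Col9a1 was at 250, 165 and 274 CPM with DMSO and at 70.9, 91.0 and 68.4 CPM with FMK, a log2 fold change of -1.58 ± 0.29 (edgeR adjusted p = 0.00899). Here library 2 was the lowest of the DMSO group and the highest of the FMK group, so the gap between libraries of the same number was smallest there. Col9a2 was at 89.6, 70.3 and 110 CPM with DMSO and at 34.96, 30.2 and 39.5 CPM with FMK, a log2 fold change of -1.37 ± 0.26 (edgeR adjusted p = 0.00681). Col9a3 was at 122, 67.4 and 143 CPM with DMSO and at 31.4, 34.7 and 40.3 CPM with FMK. DMSO library 2 was again the lowest of its group, though above every FMK library. The log2 fold change of Col9a3 was -1.65 ± 0.44, with the largest standard error of the 6 genes (edgeR adjusted p = 0.0442).

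The calls of Col2a1, Col9a1, Col9a2 and Col11a1 held under 20 of 20 other settings, leaving out each library in turn among them. Those of Col9a3 and Col11a2 held under 12 of 20 each: both were lost without DMSO library 1 or 3, without FMK library 1, 2 or 3 and without OPH library 1, where the adjusted p was 0.0703 to 0.132 for Col9a3 and 0.0583 to 0.111 for Col11a2. With libraries 1 and 2 alone, 5 of 6 genes were called, and Col11a2 was not (adjusted p = 0.136, log2 fold change -1.17). In the authors' deposited table, made with DESeq2, Col9a3 and Col11a2 had adjusted p of 0.00142 and 0.00108 for DMSO over FMK. The other collagen genes were lower still there.

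The comparison of OPH with DMSO asks the same of Q-VD-OPH, at the same dose and over the same time, and shares its control libraries with the FMK comparison. The collagen transcripts had lower means with OPH in 6 of 6 genes, but only Col9a1 and Col11a1 passed the threshold: 2 of 6 fell, where 8.11% of genes tested were lower and 16.7% were called in either direction. The unadjusted edgeR p was under 0.05 in 5 of 6, but such a p was common among the 13255 genes tested. Ranked by p, Col9a2, with the highest p of these 5 (0.0289), was number 3144. Col11a2, with an unadjusted edgeR p of 0.0516, was number 3820. The median log2 fold change was -1.09, against -0.0025 over all genes tested. The OPH libraries of 3 genes, Col2a1, Col9a1 and Col11a1, lay below every DMSO library, which held for 17.1% of genes tested. In bulk RNA, fewer chondrocytes and less collagen transcript per chondrocyte cannot be told apart, here and in the comparison with FMK.

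Col11a1 had the lowest adjusted p of the 6. Its OPH libraries were at 361, 336 and 547 CPM, all below the lowest DMSO library at 778 CPM. The log2 fold change was -1.13 ± 0.22 (edgeR adjusted p = 0.0138), beside -1.18 ± 0.22 with FMK. Col9a1 was at 85.8, 74.9 and 134 CPM with OPH, below the 165 CPM of DMSO library 2. Its log2 fold change was -1.23 ± 0.28 (edgeR adjusted p = 0.0279), beside -1.58 ± 0.29 with FMK.

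Col2a1 was at 569, 455 and 924 CPM with OPH. Library 3 was far above the other two and just under DMSO library 2, at 991 CPM. The log2 fold change was -1.04 ± 0.30 and did not pass (edgeR adjusted p = 0.0657, 95% interval -1.77 to -0.32 before adjustment).

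The remaining 3 genes overlapped with DMSO, each time because OPH library 3 lay above DMSO library 2. Col9a2 was at 57.8, 37.5 and 74.8 CPM with OPH, a log2 fold change of -0.67 ± 0.25 (edgeR adjusted p = 0.122). Col9a3 was at 41.2, 27.6 and 75.6 CPM, a log2 fold change of -1.21 ± 0.43 (edgeR adjusted p = 0.120). Col11a2 was at 110, 78.2 and 158 CPM, a log2 fold change of -0.69 ± 0.29 (edgeR adjusted p = 0.179).

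The count of genes called with OPH moved with the libraries used and with the model. It was 6 of 6 without OPH library 3, 0 of 6 without DMSO library 3, 1 of 6 without DMSO library 1, OPH library 1 or OPH library 2, and 4 of 6 with libraries 1 and 2 alone. With the library number as a block it was 5 of 6, with Col9a2 (adjusted p = 2.09e-05), Col9a3 (0.00654) and Col11a2 (0.0232) now called and Col2a1 not (0.0640). The block moved the log2 fold change of Col9a2 only from -0.67 to -0.69, while the adjusted p fell from 0.122; the reason was not tested. A fit that does not set apart genes of unusual spread (not robust), chosen after seeing the data, called 5 of 6 without the block, Col9a2 being the exception (adjusted p = 0.0501), and 6 of 6 with it (Col9a2 at 7.14e-05). Over 20 settings the adjusted p ran from 2.09e-05 to 0.279 for Col9a2, from 2.37e-06 to 0.279 for Col9a3, from 2.28e-04 to 0.389 for Col11a2 and from 4.31e-06 to 0.179 for Col2a1. For Col11a1 it ran from 3.56e-13, with the block, to 0.0525. With FMK the block likewise gave very small values for Col11a1 and Col9a2 (edgeR adjusted p = 1.40e-13 and 1.13e-10), and the reason was not tested. The authors' deposited table, made with DESeq2, gives Col2a1 a log2 fold change of 0.89 for DMSO over OPH with an adjusted p of 0.00652. There Col9a1, Col9a2, Col9a3 and Col11a1 were also under 0.05 (adjusted p = 5.04e-04, 0.0212, 0.0331 and 5.28e-05), and Col11a2 was not (0.112).

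**Figure D2:**
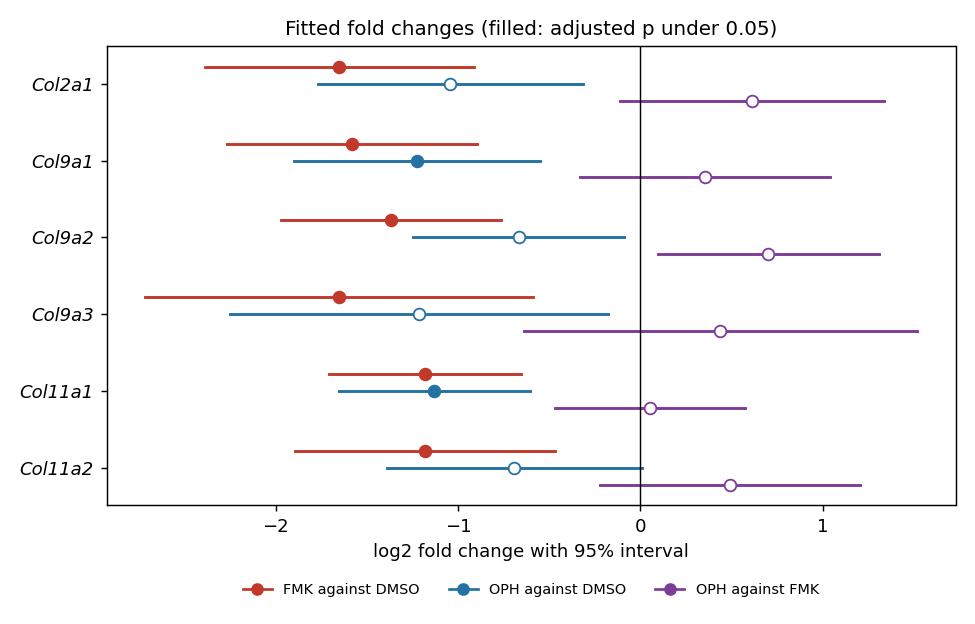
Fitted log2 fold change (horizontal axis) of each collagen gene with its 95% interval, for FMK against DMSO, OPH against DMSO and OPH against FMK. Filled points passed the adjusted p threshold of 0.05: 6 for FMK, 2 for OPH and 0 for OPH against FMK.

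Libraries that carry the same number deviated together across genes, so the gap was also read number by number. With FMK the log2 ratio of CPM was below 0 in all 3 numbers for 6 of 6 genes, and the same count held with OPH. How many of all genes tested met this was not counted, so these counts are descriptions only. For Col2a1 the FMK ratios were -1.72, -1.15 and -2.02 and the OPH ratios -1.37, -1.12 and -0.74 for numbers 1, 2 and 3. Number 2 thus had the smallest Col2a1 gap with FMK, and number 3 had the smallest with OPH. Col11a1 was the most even with FMK, at -1.29, -1.17 and -1.10, and stood at -1.35, -1.21 and -0.90 with OPH. For Col11a2 the OPH ratios ran from -1.08 in number 1 to -0.28 in number 3.

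**Figure D3:**
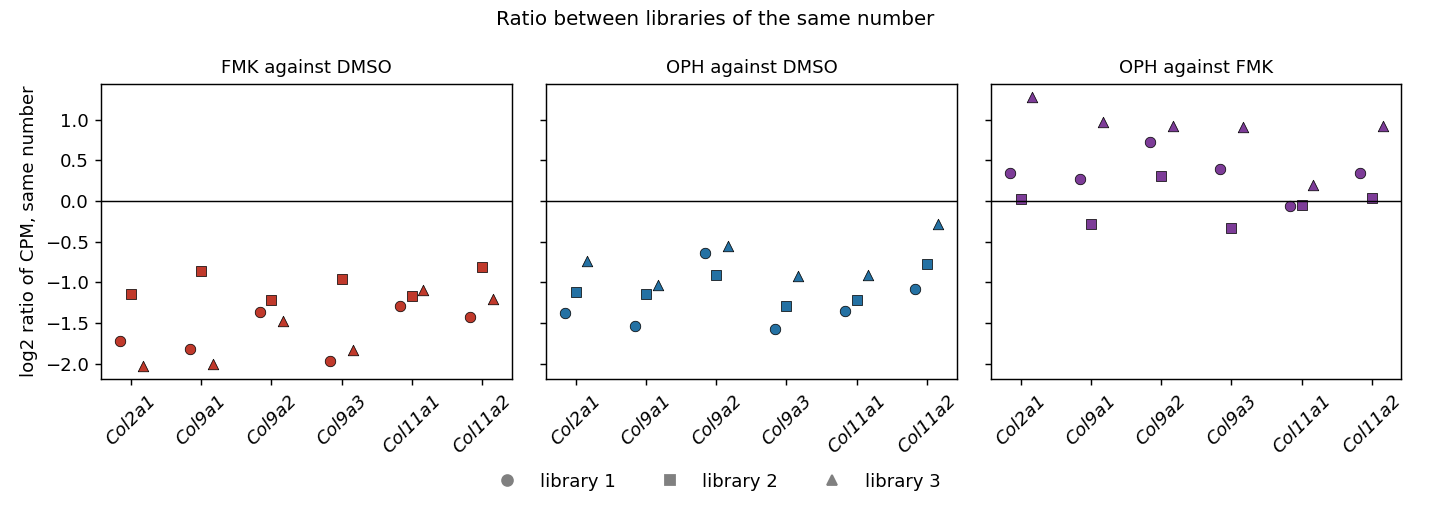
Log2 ratio of CPM between libraries of the same number (vertical axis) for each collagen gene, in 3 panels for FMK against DMSO, OPH against DMSO and OPH against FMK; symbols give the library number. In the first 2 panels every point is below 0, down to -2.02 for Col2a1 with FMK in number 3.

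The direct comparison of OPH with FMK asks whether the 2 inhibitors left these transcripts at different levels. The mean was higher with OPH in 6 of 6 genes, yet 0 of 6 passed the threshold, where 4.20% of genes tested were higher with OPH and 8.86% were called in either direction. By edgeR 1 gene, Col9a2, had an unadjusted p under 0.05, and DESeq2 called 1. Ranked by edgeR p, that of Col9a2 (0.0284 before adjustment) was number 2427 of the 13255 genes tested. Col9a2 was at 34.96, 30.2 and 39.5 CPM with FMK and 57.8, 37.5 and 74.8 CPM with OPH, a log2 difference of 0.70 (95% interval 0.09 to 1.31, edgeR adjusted p = 0.155). Its highest FMK library lay above its lowest OPH library, while within each number OPH was higher. With the library number as a block Col9a2 was called (adjusted p = 1.54e-04), at a log2 difference of 0.66. Why the block lowered its adjusted p so far was not tested. Over the other settings its adjusted p ran up to 0.352. In the fit that is not robust 0 of 6 genes were called without the block, and 3, Col2a1, Col9a2 and Col11a2, with it (adjusted p = 0.0100, 3.90e-04 and 0.0226). Without OPH library 2 Col9a2 was called as well (adjusted p = 0.0141). The authors' deposited table, made with DESeq2, gives Col9a2 a log2 fold change of -0.63 for FMK over OPH (adjusted p = 0.0267). The other genes had an adjusted p of 0.235 to 0.955 there.

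For the other genes the intervals of the difference were wide. Col2a1 was 0.61 higher on the log2 scale with OPH (interval -0.11 to 1.33), with no overlap between the 3 libraries of each group, which held for 13.9% of genes tested. That gap came mostly from number 3, with a log2 ratio of 1.28 against 0.35 and 0.02 in numbers 1 and 2. Over 20 settings the fitted difference of Col2a1 ran from 0.19 to 0.81. Col11a2 differed by 0.49 (interval -0.22 to 1.20), Col9a3 by 0.44 (interval -0.64 to 1.52) and Col9a1 by 0.35 (interval -0.33 to 1.04). Col11a1 had the narrowest interval, 0.05 (-0.47 to 0.57).

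Within a library, the balance between the chains can be read as a ratio of counts, which does not depend on how libraries are scaled. In all, 9 ratios were compared in each comparison by a two-sided exact permutation test, which with 3 libraries against 3 cannot give p below 0.1. Col2a1 held 46.5% ± 1.4 of the counts of the 6 genes with DMSO, 40.4% ± 4.8 with FMK and 46.6% ± 1.6 with OPH (SD, n = 3). Col11a1 held 32.1% ± 2.8, 37.8% ± 5.3 and 30.5% ± 2.5. FMK library 3 stood apart, with 34.9% from Col2a1 and 43.8% from Col11a1, and there Col11a1 exceeded Col2a1, at 1.25 counts per count of Col2a1.

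The ratio of Col11a2 to Col2a1 was higher in every inhibitor library than in any DMSO library. It was 0.158, 0.135 and 0.124 with DMSO, 0.194, 0.170 and 0.220 with FMK and 0.193, 0.172 and 0.171 with OPH. The log2 difference was 0.48 with FMK and 0.37 with OPH (exact permutation p = 0.1 each, the smallest possible). After Benjamini-Hochberg adjustment over the 9 ratios these were 0.675 and 0.225, and no ratio went below 0.225 in any comparison.

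Among the collagen IX chains, Col9a1 to Col9a2 was 2.79, 2.35 and 2.50 with DMSO, 1.49, 1.99 and 1.79 with OPH and 2.03, 3.01 and 1.73 with FMK. OPH lay below DMSO in every library, with a log2 difference of -0.54 (exact permutation p = 0.1), while FMK overlapped with DMSO (log2 difference -0.21, exact permutation p = 0.5). Col9a1 to Col9a3, the other partner chain, overlapped between all groups, at geometric means of 2.12, 2.16 and 2.16 with DMSO, FMK and OPH. Against Col2a1, Col9a2 was higher with OPH (log2 difference 0.38) and Col9a1 lower (log2 difference -0.16), both without overlap with DMSO (exact permutation p = 0.1 each). Between the inhibitors, Col11a1 to Col2a1 was 0.844, 0.773 and 1.25 with FMK and 0.635, 0.739 and 0.591 with OPH, a log2 difference of -0.52 without overlap (exact permutation p = 0.1).

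**Figure D4:**
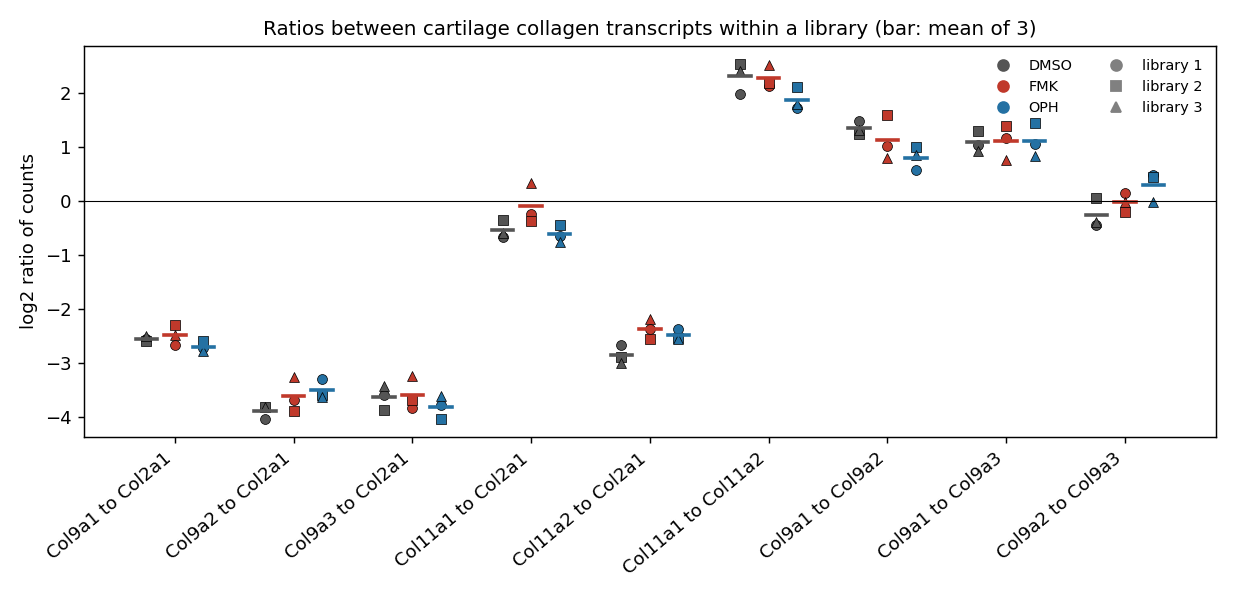
Log2 ratio of the counts of 2 collagen genes within a library (vertical axis) for the 9 ratios compared, by group (colour) and library number (symbol), with bars for the mean of 3. Col11a2 to Col2a1 has its 3 DMSO libraries below every FMK and OPH library, while Col9a1 to Col9a3 overlaps in all groups.

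The collagens were also set against 12 other chondrocyte transcripts, as log2 CPM minus the mean log2 CPM of those markers in the same library. Of the 12 markers, 6 fell with FMK and 6 with OPH. Their summed level was 765 to 864 CPM with FMK and 648 to 932 CPM with OPH, below the 1276 to 1762 CPM of DMSO in every library. Acan, the main cartilage proteoglycan, fell by 1.77 on the log2 scale with FMK and by 1.14 with OPH (edgeR adjusted p = 0.00479 and 0.0352). Relative to these markers, Col2a1 was 0.56 lower with FMK than with DMSO, without overlap (exact permutation p = 0.1), and 0.06 higher with OPH than with DMSO, with overlap (exact permutation p = 0.7). Leaving the SOX genes out of the markers moved these differences to -0.44 and 0.30. Relative to the markers, Col9a2 and Col11a2 were 0.45 and 0.43 higher with OPH than with DMSO, without overlap (exact permutation p = 0.1 each). Benjamini-Hochberg adjustment over the collagen genes and their mean gave 0.233 for Col2a1 with FMK and 0.35 for Col9a2 and Col11a2 with OPH. The mean of the collagen genes differed from DMSO by -0.33 with FMK, without overlap, and by 0.12 with OPH, with overlap (exact permutation p = 0.1 and 0.3). Leaving the SOX genes out changes only the shared reference, so it moves these differences up by as much as those of Col2a1. The values therefore depend on the choice of markers.

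Transcripts of other cell types moved with the groups too. All 12 macrophage markers fell with both inhibitors, and their summed level was 871 to 1682 CPM with DMSO, 18.1 to 25.5 CPM with FMK and 143 to 176 CPM with OPH, with no marker at 0 in a group. Tyrobp, a signalling adaptor of myeloid cells, was at 119 ± 24.7 CPM with DMSO, 1.07 ± 0.409 CPM with FMK and 12.3 ± 1.48 CPM with OPH, and Csf1r, the receptor for the macrophage growth factor, at 171 ± 46.4, 1.51 ± 1.02 and 18.5 ± 3.06 CPM. Of 10 adipocyte markers 5 fell with FMK and 0 with OPH, and their summed level was 500 to 2551, 129 to 226 and 767 to 2974 CPM with DMSO, FMK and OPH, with Cidec at 0 with FMK. Adipoq, which encodes adiponectin, was at 139 ± 103, 2.67 ± 1.07 and 144 ± 92.0 CPM, and Lpl, lipoprotein lipase, at 738 ± 364, 101 ± 31.5 and 638 ± 299 CPM.

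Of 11 skeletal muscle markers, 10 were tested and 0 were called with either inhibitor; their summed level was 229 to 832, 118 to 536 and 243 to 717 CPM, with Ckm at 0 with FMK and with OPH. Acta1, skeletal muscle actin, was at 94.1 ± 62.8, 66.2 ± 42.3 and 76.9 ± 52.0 CPM, and Myog, the muscle regulator myogenin, at 10.2 ± 10.2, 10.8 ± 10.1 and 20.8 ± 10.6 CPM. Endothelial markers were near 0, with a summed level of 9.14 to 18.9 CPM for 8 genes over all libraries, and with 0 of 3 tested lower and 1, Egfl7, higher with FMK. Among them Pecam1, a junction protein, was at 0 with OPH, Cdh5 at 0 with DMSO, and Tie1 and Emcn at 0 with FMK and with OPH. Fibroblast and perichondrial markers summed to 25010 to 26624, 25690 to 27360 and 19593 to 19984 CPM, with 1 of 8 higher and 1 lower with FMK and 4 of 8 lower with OPH. Of 6 joint and tendon markers, summing to 646 to 836, 842 to 1026 and 571 to 729 CPM, 2 rose and 1 fell with FMK and 1 fell with OPH; Prg4, the lubricin of joint surfaces, rose from 9.86 ± 3.94 to 93.7 ± 43.4 CPM with FMK (edgeR adjusted p = 0.00334). The part of these cell types in the collagen levels was not tested.

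Around the collagens, genes that act on them were read by list, each beside the shares of all genes called: 10.4% higher and 10.1% lower with FMK, 8.61% higher and 8.11% lower with OPH. Of the SOX trio, which drives transcription of these collagens, Sox9 was at 471 ± 63.4 CPM with DMSO, 304 ± 28.7 CPM with FMK and 314 ± 49.7 CPM with OPH. It fell with both (log2 fold change -0.63 ± 0.12 and -0.59 ± 0.12, edgeR adjusted p = 0.00212 and 0.00475), without overlap with DMSO. Sox6 fell with FMK, from 30.5 ± 5.77 to 12.2 ± 0.367 CPM (log2 fold change -1.32 ± 0.18, edgeR adjusted p = 2.40e-05), and was 26.6 ± 3.25 CPM with OPH (edgeR adjusted p = 0.477). The inhibitors differed in Sox6, which was 1.12 ± 0.18 higher on the log2 scale with OPH than with FMK (edgeR adjusted p = 6.82e-04). Sox5 was at 28.6 ± 5.01, 24.5 ± 6.13 and 20.5 ± 4.82 CPM and passed in neither comparison with DMSO (adjusted p = 0.532 and 0.139).

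Among 14 enzymes that hydroxylate and glycosylate collagen chains, 4 rose and 2 fell with FMK, and 1 rose and 5 fell with OPH, with median log2 fold changes of -0.11 and -0.25. Plod3, a lysyl hydroxylase, rose with both, from 156 ± 15.96 to 223 ± 1.47 CPM with FMK and 190 ± 7.08 CPM with OPH. P4ha1, the catalytic subunit of prolyl 4-hydroxylase, rose with FMK (log2 fold change 0.45 ± 0.08, edgeR adjusted p = 4.84e-04) and had a log2 fold change of -0.04 ± 0.08 with OPH. P4hb, the partner subunit, fell with OPH by 0.50 on the log2 scale, from 1053 ± 63.3 to 746 ± 51.6 CPM, and P3h4, which takes part in lysine hydroxylation, by 0.59. P3h1, a prolyl 3-hydroxylase, fell with both, from 227 ± 15.98 to 181 ± 14.7 and 167 ± 6.87 CPM.

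Of 16 chaperones and secretion factors of procollagen, 0 rose and 5 fell with FMK, and 1 rose and 7 fell with OPH (medians -0.075 and -0.24). Fkbp14, a prolyl isomerase of the endoplasmic reticulum, fell from 106 ± 6.64 to 62.8 ± 7.10 CPM with FMK and 65.1 ± 2.28 CPM with OPH. Hspa5, the chaperone BiP, fell by 0.27 and 0.26 and Calr, calreticulin, by 0.23 and 0.46 on the log2 scale. Mia3, a loader of procollagen into transport carriers, fell with FMK from 208 ± 4.59 to 154 ± 25.4 CPM, and Ppib, a prolyl isomerase, fell with OPH from 560 ± 41.1 to 420 ± 36.5 CPM.

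Of 12 propeptide proteases and cross-linking enzymes 11 were tested; 3 rose and 2 fell with FMK, and 0 rose and 4 fell with OPH (medians 0.32 and -0.14). Pcolce2, an enhancer of procollagen C-proteinase, fell the most, from 103 ± 10.4 to 28.7 ± 0.116 CPM with FMK and 41.3 ± 3.77 CPM with OPH (edgeR adjusted p = 2.84e-09 and 2.50e-07). Its relative Pcolce fell with OPH, from 831 ± 52.5 to 659 ± 13.6 CPM. Of the lysyl oxidases, which start cross-links, Loxl3 rose with FMK from 68.9 ± 8.21 to 135 ± 1.57 CPM and Loxl1 from 236 ± 21.6 to 338 ± 14.3 CPM. Lox itself fell with OPH, from 1159 ± 56.6 to 901 ± 34.3 CPM, and was at 1323 ± 61.8 CPM with FMK (edgeR adjusted p = 0.0582).

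Of 15 transcripts of proteins that bind cartilage fibrils, 1, Bgn, rose and 8 fell with FMK, and 0 rose and 8 fell with OPH, each with a median of -0.98. Hapln1, the link protein of aggrecan complexes, fell from 120 ± 27.9 to 47.2 ± 4.15 CPM with FMK and 42.5 ± 9.96 CPM with OPH. Matn4, a matrilin that bridges matrix filaments, fell from 413 ± 62.8 to 209 ± 7.71 and 166 ± 29.7 CPM. Cilp2, a cartilage intermediate layer protein, fell from 275 ± 39.4 to 111 ± 4.14 and 152 ± 13.3 CPM, and Prelp, a small leucine-rich proteoglycan, from 65.7 ± 10.5 to 29.5 ± 3.55 and 46.3 ± 8.26 CPM.

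Of the other fibrillar and fibril-associated collagens 13 were tested; 1 rose and 4 fell with FMK (median -0.077), and 0 rose and 7 fell with OPH (median -0.43). Col1a1, the main collagen of fibrous tissue, stood at 11768 ± 1327 CPM with DMSO, 11153 ± 598 CPM with FMK (edgeR adjusted p = 0.507) and 8750 ± 157 CPM with OPH (edgeR adjusted p = 3.98e-04). Col5a2, a fibrillar chain of collagen V, rose with FMK from 1037 ± 14.8 to 1301 ± 24.3 CPM. Col14a1, a fibril-associated collagen of dense connective tissue, fell from 386 ± 16.8 to 169 ± 23.99 and 243 ± 26.0 CPM. Col16a1, another fibril-associated collagen, fell from 269 ± 31.9 to 221 ± 16.2 and 181 ± 9.85 CPM, and Col22a1, a collagen of tissue junctions, from 7.46 ± 2.69 to 1.63 ± 0.343 and 2.85 ± 1.41 CPM.

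Among 7 collagen receptors, Itgb1, the shared beta chain of collagen-binding integrins, rose with FMK (log2 fold change 0.36 ± 0.10, edgeR adjusted p = 0.0174), and Itga1, an alpha chain, fell with FMK and OPH by 0.68 and 0.88 on the log2 scale. Ddr2, a receptor kinase activated by fibrillar collagen, and Itga10, a collagen-binding integrin chain of chondrocytes, passed in neither comparison with DMSO. Itga10 was at 10.2 ± 2.78, 5.65 ± 2.97 and 6.40 ± 1.81 CPM. Ddr2 differed between the inhibitors, at 172 ± 15.1 CPM with FMK and 239 ± 25.5 CPM with OPH (edgeR adjusted p = 0.00498).

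Of 7 proteases that degrade collagen II, 6 were tested; 4 rose and 1 fell with FMK, and 2 rose and 2 fell with OPH. Mmp13, the collagenase most active on collagen II, was at 1.58 ± 1.15 CPM with DMSO and 19.2 ± 11.3 CPM with FMK, without overlap (log2 fold change 3.61 ± 0.67, edgeR adjusted p = 0.00453). With OPH it was at 3.11 ± 1.88 CPM (edgeR adjusted p = 0.441), and the difference between the inhibitors passed the threshold (edgeR adjusted p = 0.0299). Mmp2, a gelatinase, rose with both inhibitors, to 412 ± 39.4 CPM with FMK and 477 ± 58.0 CPM with OPH from 309 ± 52.5 CPM. Of the cathepsins, lysosomal proteases, Ctsl rose with FMK (483 ± 26.5 to 634 ± 53.3 CPM), Ctsk fell with both (87.1 ± 21.5 to 59.8 ± 6.90 and 47.9 ± 4.12 CPM), and Ctsb fell with OPH (860 ± 206 to 447 ± 47.5 CPM). Ctsk and Ctsb are also abundant in macrophages, whose markers fell as given above, and the part of those cells was not tested. With scaling by library size alone, the median of all genes with FMK was -0.11, the rises of P4ha2, Plod2, Adamts14, Bgn, Itgb1, Mmp14 and Mmp2 with FMK were no longer called, while P4hb, P3h4, Ddr2 and Ctsb were then called lower with FMK. The hydroxylating and glycosylating enzymes then had 2 higher and 4 lower, and the proteases that degrade collagen II 2 higher and 2 lower.

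**Figure D5:**
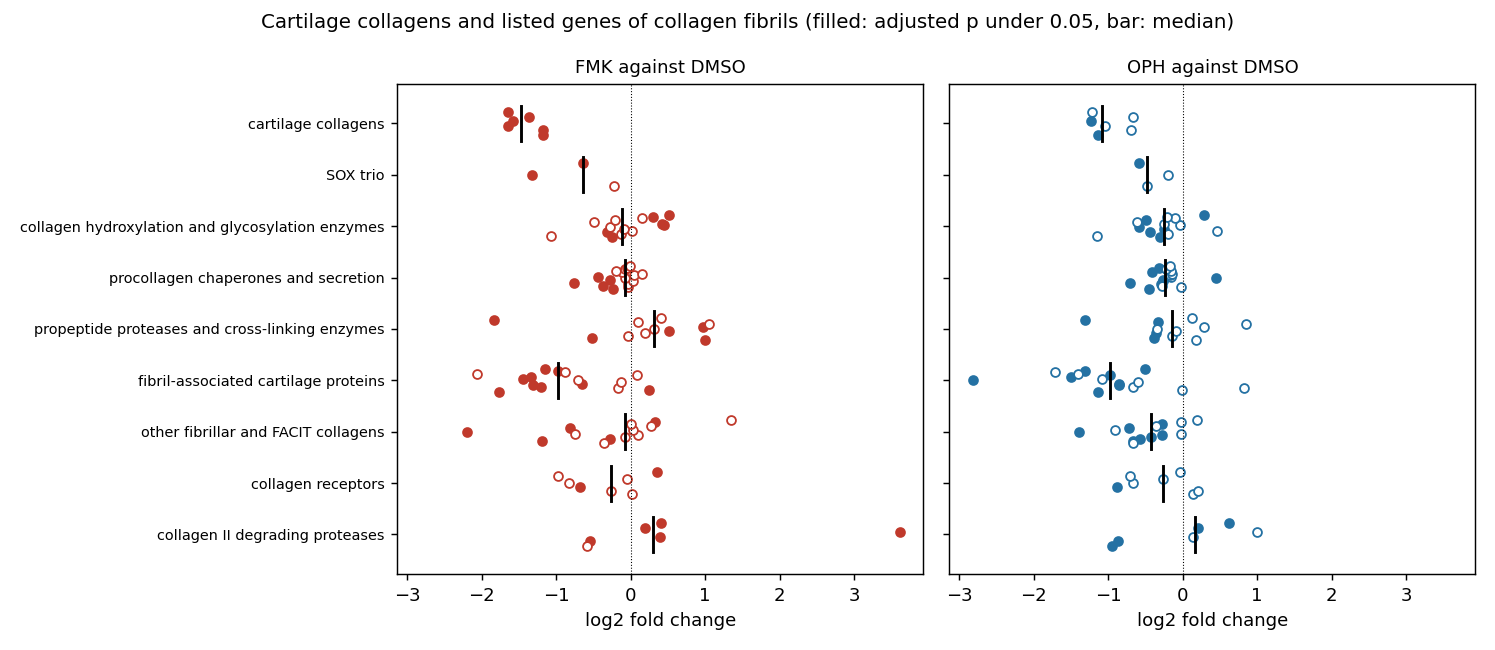
Log2 fold change (horizontal axis) of the cartilage collagens and of each gene tested in the 8 lists of genes that act on them, for FMK and OPH against DMSO; filled points passed the threshold and bars are medians. The collagens sit left of 0 with medians of -1.47 and -1.09, the fibril-associated cartilage proteins at -0.98 in both, and the other collagens have medians of -0.077 and -0.43.

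Across the 9 libraries the 6 genes kept a like order, with Pearson r of log2 CPM from 0.882 to 0.983 between pairs and from 0.648 to 0.947 after each group's mean was taken out. The points share their treatment groups and culture numbers, so the values are descriptions. The genes most like Col2a1 were Alyref2, an RNA export factor gene (r = 0.984), Col9a1 (0.983), Mia, a secreted protein of chondrocytes (0.979), and Nudt16l1 (0.978). Col9a1 was most like Col2a1, Alyref2, Cryl1 and Mia. Col9a2 was most like Col22a1 and Fzd9, a Wnt receptor (r = 0.968 each), followed by 2810001G20Rik and Grb10. Col9a3 was most like Fzd9 (r = 0.986), Matn1, a cartilage matrilin (0.985), Col22a1 (0.983) and Bola1 (0.976).

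Col11a1 was most like Pycr1, an enzyme of proline synthesis, and Tenm3 (r = 0.986 each), then Mrpl18 and Gxylt2, and Col11a2 was most like Col22a1 and Islr (r = 0.976 each), then Matn1 and Ppp1r1b. After the group means were taken out, Fzd9 remained among the 4 nearest genes of Col9a2, Col22a1 among those of Col9a3, Pycr1 and Tenm3 among those of Col11a1, and Islr and Ppp1r1b among those of Col11a2, while 0 of the 4 remained for Col2a1 and 0 of the 4 for Col9a1. Pycr1 was at 98.5 ± 3.84 CPM with DMSO, 56.7 ± 3.902 CPM with FMK and 59.0 ± 6.99 CPM with OPH, and Tenm3 at 115 ± 10.5, 46.0 ± 6.68 and 54.3 ± 12.4 CPM.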

How the data were processed

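The members and gene lists were chosen with earlier results of these data known. The QuantSeq kit sequences only the tail end of each mRNA, per the labels' protocols, so the counts say nothing about splicing. The authors deposited raw counts per gene and library, together with DESeq2 log2 fold changes and p-values that were used only where the deposited table is named. The submitters' processing notes name cutadapt, STAR, DESeq2, FastQC and MultiQC with the mm10 genome; no source used here names the counter, its annotation or its use of strand, so counts of overlapping genes are uncertain. Spike-in rows (99, with 1 count in all) were left out. Identifiers were matched to GENCODE M21, where 52403 of 52550 were found.

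Tests on the counts used edgeR 4.0.16 (R 4.3.3): filterByExpr (13255 genes), TMM scaling (factors 0.945 to 1.03), a robust quasi-likelihood fit with 1 coefficient per group over all 9 libraries, two-sided tests, and Benjamini-Hochberg adjustment over all genes tested with a threshold of 0.05. The fit was tested on simulated counts with the same spread for every gene and no deviation shared by library number. These data differ from that setting in both respects. CPM are relative to the TMM-scaled library size. Ratios used counts + 0.5 and an exact permutation test over libraries. Totals were 5659789 to 6867350 counts, and intervals cover the spread among 3 libraries per group. Same-numbered libraries deviated together across genes in 9 of 9 pairs (correlation 0.102 to 0.344), from the data and not from the labels. Every pair was thus above 0.1, the mark set for reading the numbers as pairs. The number was fitted as a block only as an alternative, and the main counts of genes called come from the fit without it. Other alternatives were RLE and library-size scaling, no filter, a filter of 1 CPM in 3 libraries, DESeq2 1.42.0, limma-voom 3.58.1, the 2 groups alone, each library left out, libraries 1 and 2 alone and, chosen after seeing the data, fits that are not robust, with and without the block. Named genes were the 6 collagens, the SOX trio, the 3 genes of smallest p with each inhibitor in each other list, fixed cell type anchors, and the 4 genes most correlated with each collagen.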

Additional observations from a re-analysis of the deposited data

How the results depend on the processing

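No fold change of a collagen gene that was called reversed under the 20 alternatives run, of which 2, fits that are not robust, were chosen after seeing the data. Of the 3 counts of collagen genes called, that with FMK (6) lay between 4 and 6 throughout. That with OPH against DMSO (2) was 5 with DESeq2, 5 with the replicate block, 5 without robust fitting and 6 with the replicate block and without robust fitting, 1 with only the 2 groups compared and 4 with libraries 1 and 2 alone, and ran from 0 to 6 when 1 library was left out. That with OPH against FMK (0) was 1, Col9a2, with no low-count filter, with DESeq2 and with the replicate block, was 3 with the replicate block and without robust fitting, and ran from 0 to 1 when 1 library was left out. Among all genes tested, 1175 were called with OPH against FMK, 2139 with the replicate block, 2087 with that block and without robust fitting, and 571 to 1386 when 1 library was left out. In the robust fit the block changed no other call of a collagen gene than those given in the report; why it changed these was not tested. With FMK, the adjusted p of Col9a3 rose to 0.0766 with no filter and to 0.0625 with limma-voom, and that of Col11a2 to 0.0678 with no filter. With OPH, the call of Col9a1 was lost in 6 of 20 alternatives, with an adjusted p of up to 0.0940 without OPH library 1; the others were no filter, only the 2 groups compared and leaving out DMSO library 1, DMSO library 3 or OPH library 2. That of Col11a1 was lost without DMSO library 3 (adjusted p = 0.0525). Scaling by library size alone moved the share of higher genes among those called from 50.8% to 34.3% with FMK against DMSO and from 47.4% to 74.1% with OPH against FMK, and gave a median over all genes of -0.11 and 0.12 (log2). The cause of these changes was not tested. With 3 cultures per group the precision is limited: the 95% interval of the log2 fold change of Col9a3, the widest, was -2.71 to -0.59 with FMK.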
